A study of Mus musculus with 169 samples.

Results

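Neurons are the main source of synaptic transcripts in the brain, and the signal of 9 of them was measured in microglia sorted from mice without progranulin. The genes were Syn1, Snap25, Syt1 and Stx1a of the presynaptic terminal and Dlg4, Shank3, Homer1, Gria2 and Camk2a of the postsynaptic side. They were chosen by name, and every probe whose RefSeq accession maps to one of them was taken. This gave 16 of the 55681 probes on the array, for 9 of the 20145 gene symbols that could be assigned.

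The knockout (KO) mice lacked both copies of Grn, the gene of progranulin, a secreted and lysosomal glycoprotein, in the whole body (Grn-/-), and the wild-type (WT) mice carried both copies (Grn+/+). Both were on the C57B/6J background and were 4 or 16 months old. Cells were enriched on Percoll gradients and sorted by flow cytometry for CD11b, CD45 and Ly6G, which mark microglia together with other myeloid cells including neutrophils. The labels do not say which gate was kept or whether an array stands for 1 animal or for a pool. The groups were KO at 4 months (3 arrays), WT at 4 months (4 arrays), KO at 16 months (4 arrays) and WT at 16 months (4 arrays). The series also holds brain tissue arrays, not used here.

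At a chemical synapse, an action potential opens calcium channels in the terminal and vesicles fuse through the SNARE proteins, with synaptotagmin as the calcium sensor. Across the cleft, glutamate receptors are anchored in the postsynaptic density by layered scaffolds of the PSD-95, Shank and Homer families. Microglia are the phagocytes of the brain and take up synaptic material during circuit refinement and in disease models. Transcripts of neuronal genes in a sorted myeloid population can be made by the sorted cells or come from other cells or their fragments, and a signal on an array does not separate these.

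The promoters of 7 of the 9 genes were read from RefSeq (GRCm38.p6), as windows of 250 bases before to 50 bases after the start of the gene. Those of Syn1, Shank3 and Gria2, which have a probe that was lower in KO microglia at 16 months, and the first window of Homer1, which has probes that were higher, are shown 5′ to 3′ along the gene's strand. Capitals mark motif matches.
Syn1, chrX:20920869-20921168, minus strand: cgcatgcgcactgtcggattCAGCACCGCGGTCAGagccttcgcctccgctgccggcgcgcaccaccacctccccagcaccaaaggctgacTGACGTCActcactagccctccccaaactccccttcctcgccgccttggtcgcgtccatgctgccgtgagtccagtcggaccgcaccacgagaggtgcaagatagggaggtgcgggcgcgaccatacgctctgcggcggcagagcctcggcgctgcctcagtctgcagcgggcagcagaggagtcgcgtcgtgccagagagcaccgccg
Shank3, chr15:89499358-89499657, plus strand: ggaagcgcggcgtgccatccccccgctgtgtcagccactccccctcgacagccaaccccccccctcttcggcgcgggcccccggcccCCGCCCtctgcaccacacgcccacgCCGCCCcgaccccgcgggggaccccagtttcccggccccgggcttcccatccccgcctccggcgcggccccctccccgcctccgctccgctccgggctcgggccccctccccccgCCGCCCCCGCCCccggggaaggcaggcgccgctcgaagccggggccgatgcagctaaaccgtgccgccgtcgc
Gria2, chr3:80802786-80803085, minus strand: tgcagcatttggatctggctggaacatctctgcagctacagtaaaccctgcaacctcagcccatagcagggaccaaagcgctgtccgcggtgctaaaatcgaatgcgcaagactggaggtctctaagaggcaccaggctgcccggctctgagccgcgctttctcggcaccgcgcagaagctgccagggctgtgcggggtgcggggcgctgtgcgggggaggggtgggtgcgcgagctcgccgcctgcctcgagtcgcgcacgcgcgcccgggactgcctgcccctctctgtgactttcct
Homer1, chr13:93303507-93303806, plus strand: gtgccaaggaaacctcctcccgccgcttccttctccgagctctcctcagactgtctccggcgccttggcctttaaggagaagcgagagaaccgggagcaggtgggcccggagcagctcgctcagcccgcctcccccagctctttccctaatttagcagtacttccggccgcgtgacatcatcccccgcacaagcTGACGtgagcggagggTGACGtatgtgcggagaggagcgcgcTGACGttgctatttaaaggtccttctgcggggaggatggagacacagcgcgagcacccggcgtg

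Each motif was searched on both strands. In the Syn1 window the first run of capitals matches CAGCACCNNGGNCAG, part of the element bound by the repressor REST, with 1 more open base than the core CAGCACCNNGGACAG. That looser pattern was chosen after the window was viewed, and 0.0578% of the 32851 windows in the table hold it, whereas the stricter core is in 0.0365% of all windows and in none of the 11 windows of these genes. The second run in Syn1 is the cyclic AMP response element TGACGTCA, found in 1.79% of all windows, which contains the shorter core TGACG. The Homer1 window holds 3 copies of that core, which is in 20.8% of all windows. Among the 11 windows of these genes 4 hold it, those of Stx1a, Dlg4, Homer1 and Syn1. The capitals in Shank3 are 4 GC boxes (GGGCGG), read on the opposite strand as CCGCCC and found in 35.7% of all windows. A GC box is in 4 of the 11 windows, of Stx1a, Syt1, Dlg4 and Shank3, so neither motif was limited to genes with a probe that passed. The Gria2 window holds none of the motifs searched. Neither a TATA box (TATAAA, 13.6% of all windows) nor the core GAGGAAGT bound by the myeloid factor PU.1 (3.20%) was in any of the 11 windows. No match or absence of a match here says whether a factor binds.

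Signals are given as levels, the log2 of the processed signal over the 75th percentile of that signal on the array, with a floor of -4.94. A level shows change between arrays for 1 probe and cannot be set against another probe's. This percentile stood between 1072 and 1752 on KO arrays and between 1306 and 1649 on WT arrays at 4 months. At 16 months it stood between 507 and 1037 on KO arrays and between 1010 and 1511 on WT arrays. The share of probes flagged above background was 54.2 to 62.7% on KO arrays at 16 months, against 64.6 to 69.8% on WT arrays of that age, and 66.3 to 73.0% on KO arrays at 4 months, against 70.3 to 76.5% on WT arrays. WT arrays 1 and 2 at 16 months, and WT arrays 3 and 4, differed by less than the repeat spots within 1 array do, and each set was averaged and counted as 1 replicate. The comparisons therefore rest on 3 KO and 4 WT replicates at 4 months and on 4 KO and 2 WT replicates at 16 months. All arrays of an age shared a slide and the genotypes lay in different positions on it, so age cannot be told apart from slide, nor genotype from position. The p-values measure the spread between these replicates, which may be technical. Grn, the targeted gene, averaged -2.77 ± 0.66 in KO and 6.25 ± 0.086 in WT microglia at 4 months (SD, n = 3 and 4), and at 16 months it was not well above background on any KO array and averaged 5.04 ± 0.60 in WT (SD, n = 2).

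Of the 16 probes, 15 cleared the background flag on 3 or more arrays and were tested, and 8 were well above background on all 15 arrays. At 16 months 7 of the 15 differed between KO and WT with an adjusted p under 0.05 (limma's moderated test, Benjamini-Hochberg over 45607 probes), of which 3 were higher and 4 lower in KO. They belong to 5 genes, Syn1, Shank3, Homer1, Gria2 and Camk2a, and the Gria2 probe cleared the flag on WT arrays alone. Among all probes tested 30.3% passed in the same comparison, 17.4% higher and 12.8% lower. The replicates of the genotypes did not overlap for 7 of the 15 probes, against 39.2% of all probes. The median difference of the 15 probes was 0 on the log2 scale and that of all probes was 0.10. Of all probes that passed, 57.5% were higher in KO, and this share was 44.7% when arrays were scaled on the probes above background everywhere. In bulk RNA of a sort, fewer cells of a type and less RNA per cell cannot be told apart.

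At 4 months 0 of the 15 probes passed, against 0.0219% of all probes (10 of 45607). Without adjustment 2 of the 15 had a p under 0.05, as did 2760 of all probes. None of the 15 passed at 4 months under any alternative processing that was tried. The replicates did not overlap for 2 of the 15 probes, 1 of Shank3 and 1 of Gria2, against 10.8% of all probes. The median difference was -0.35 for the 15 probes and 0 for all probes.

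**Figure D1:**
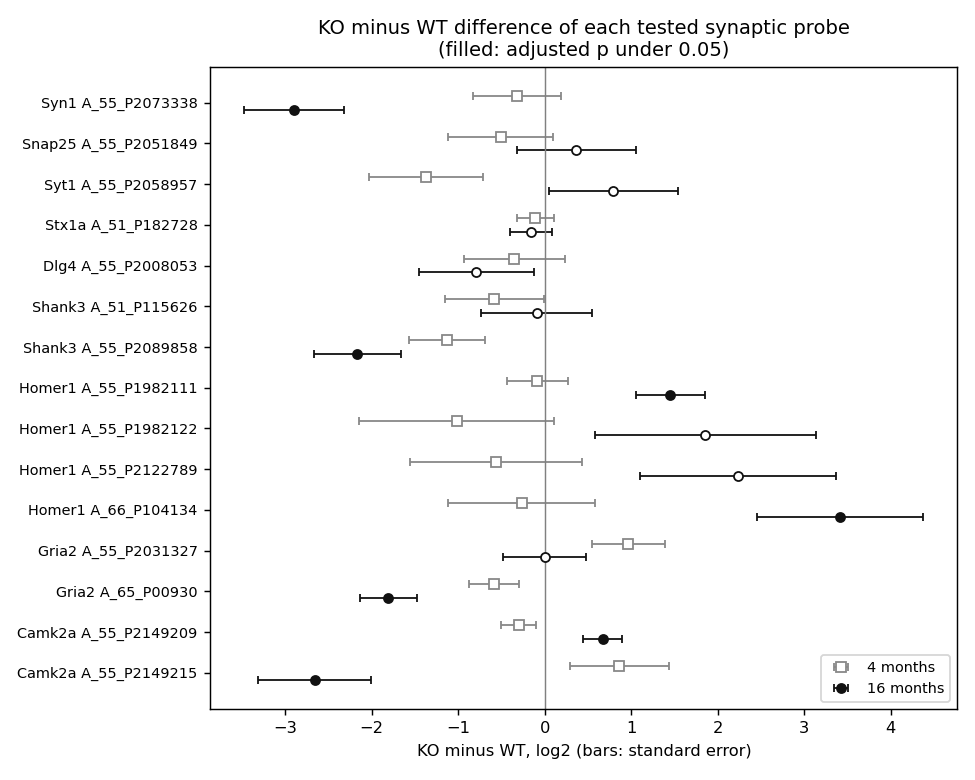
KO minus WT difference (log2, horizontal axis) of each tested synaptic probe at 4 months (grey squares) and 16 months (black circles), with bars for the standard error and filled symbols for an adjusted p under 0.05. The 7 filled symbols are all at 16 months, with 4 left of 0 and 3 right of it.

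Syn1 encodes synapsin I, the phosphoprotein that ties vesicles to the actin of the reserve pool. Its 1 probe, A_55_P2073338, had levels of -3.08, -1.71, -1.37 and -2.64 on the KO arrays at 16 months, against 1.29, 1.25, 0.08 and 0.17 on the WT arrays of that age. Every KO array lay below every WT array. The fitted difference was -2.89 (SE 0.58, adjusted p = 0.00439 by limma), which is 7.43-fold lower. Younger KO microglia had levels of -0.10, 1.04 and -0.40, against 0.41, 0.48, 1.16 and -0.03 in WT of 4 months. These ranges overlapped, and the difference was -0.32 (SE 0.51, adjusted p = 1 by limma). The differences at the 2 ages were themselves separated by -2.57 (SE 0.77), which missed the threshold with an adjusted p of 0.0572 by limma. Without WT arrays 1 and 2 the 16-month difference was -2.32 with an adjusted p of 0.0514, and its adjusted p was 0.0626 when only the 16-month arrays were fitted.

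Snap25, a SNARE protein of the plasma membrane, was read by 1 probe, A_55_P2051849. Its levels at 16 months were 2.81, 1.88, 1.73 and 3.06 in KO and 2.41, 2.08, 1.72 and 1.81 in WT microglia. The ranges overlapped and the difference was 0.36 (SE 0.69, adjusted p = 0.758 by limma). On the 4-month arrays it had levels of 2.24, 2.36 and 2.22 in KO and 2.77, 4.59, 1.86 and 1.90 in WT. WT array 2 was the highest of all 15 arrays. The difference at this age was -0.51 (SE 0.61, adjusted p = 1 by limma), and without WT array 2 it was 0.09.

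Syt1 encodes the calcium sensor of fast release. Its probe, A_55_P2058957, had levels of 1.29, 0.89, 0.24 and 0.04 in KO and 0.72, 0.82, -1.11 and -1.15 in WT microglia at 16 months. The WT values fell into an upper set (arrays 1 and 2) and a lower set (arrays 3 and 4), and the upper set lay within the KO range. The difference was 0.79 (SE 0.75, adjusted p = 0.479 by limma), and without WT arrays 3 and 4 it was -0.15. The 4-month levels were -0.52, -2.56 and -0.62 in KO and 0.75, 0.68, 0.19 and -1.07 in WT, which overlapped through WT array 4. The difference was -1.37 (SE 0.66, adjusted p = 0.861 by limma).

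Stx1a encodes syntaxin 1A, the other SNARE protein of the plasma membrane. Its probe, A_51_P182728, had levels of -3.00, -3.33 and -3.42 in KO and -3.58, -2.79, -3.40 and -2.80 in WT microglia at 4 months, which overlapped (difference -0.11, SE 0.21, adjusted p = 1 by limma). At 16 months it was not well above background on any KO array, and on WT arrays 3 and 4 alone it was, with levels of -4.45 and -4.80. WT arrays 1 and 2 were at the floor as well, so the genotypes overlapped there. The fitted difference did not pass (-0.16, SE 0.24, adjusted p = 0.689 by limma).

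**Figure D2:**
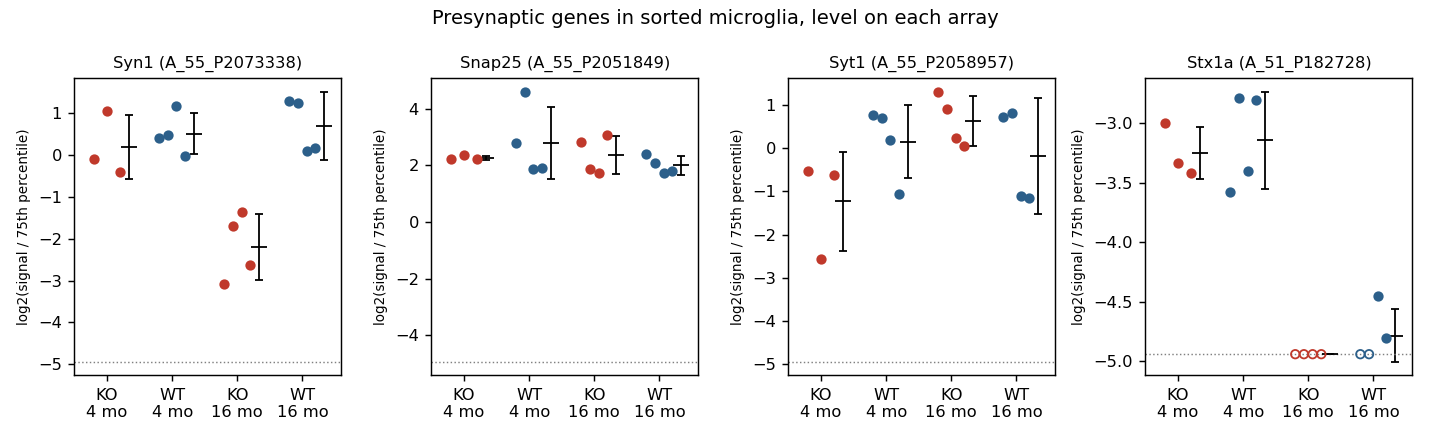
Level of the 4 presynaptic probes on each array (log2 of signal over the array's 75th percentile), KO in red and WT in blue, open circles not well above background, with the mean and SD over replicates beside each group and the floor as a dotted line. For Syn1 the KO arrays at 16 months lie between -3.08 and -1.37, below all WT arrays, and for the other genes the genotypes overlap or lie near the floor.

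On the postsynaptic side, Dlg4 encodes PSD-95, the main scaffold of the excitatory density. Its probe, A_55_P2008053, had levels of -1.69, -1.91, -1.93 and -3.98 in KO and -0.60, -0.60, -0.37 and -4.77 in WT microglia at 16 months. WT array 4 was the lowest of all 15 arrays and stood 4.39 below WT array 3, its repeat. Of 36761 probes compared between these arrays, 62 had a gap at least as large and 98.8% had a gap under 1. With both arrays averaged the difference was -0.79 (SE 0.66, adjusted p = 0.418 by limma), whereas with array 3 alone, an alternative chosen after the gap was seen, it was -1.89 with an adjusted p of 0.0255. Without WT arrays 1 and 2 it was 0.19. The 4-month levels were -1.01, -1.84 and -1.08 in KO and -1.14, -0.84, -1.09 and -0.79 in WT, which overlapped (difference -0.35, SE 0.59, adjusted p = 1 by limma).

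Shank3 encodes a scaffold that links the PSD-95 and Homer layers, and its 2 probes differed in their pattern. Probe A_55_P2089858 was well above background on 1 KO array at 16 months, array 4, at a level of -4.84, and the other KO arrays were at the floor. The WT arrays of that age had levels of -1.46, -1.66, -4.00 and -3.88, so the genotypes did not overlap although arrays 3 and 4 lay near the KO values. The difference was -2.17 (SE 0.50, adjusted p = 0.00906 by limma), or 4.49-fold lower in KO, which is limited by the floor. Without WT arrays 1 and 2 it was -0.98, and its adjusted p was 0.117 when only the 16-month arrays were fitted and 0.0530 with signals corrected by normexp. At 4 months the levels were -4.14, -4.46 and -3.64 in KO and -2.93, -2.67, -3.14 and -3.05 in WT. Here too every KO array lay below every WT array, but the difference of -1.13 (SE 0.44) had an adjusted p of 0.734 by limma.

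The other Shank3 probe, A_51_P115626, is printed in 10 spots on each array and was dim throughout. At 16 months it was not well above background on KO arrays 1 and 3 (levels -4.94 each), and its levels on KO arrays 2 and 4 were -2.62 and -4.19, against -3.51, -3.41, -4.77 and -4.62 on the WT arrays. The highest and the lowest values were both in KO, and the difference was -0.09 (SE 0.64, adjusted p = 0.979 by limma). The repeat spots of KO array 2 had a standard deviation of 0.21, so its high level was shared by its spots. The 4-month levels were -4.94, -4.70 and -4.94 in KO and -4.56, -3.48, -4.15 and -4.94 in WT (difference -0.58, SE 0.57, adjusted p = 1 by limma). Across the 13 replicates the correlation between the probes was 0.22.

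Homer1 encodes the adaptor that connects metabotropic glutamate receptors and Shank to the scaffold, and it makes long forms and a short, activity-induced form. The array holds 5 probes for it, and the files do not say which form each reads. Of these, 2 are assigned to RefSeq transcript NM_147176 and were higher in KO microglia at 16 months. Probe A_55_P1982111 had levels of 1.95, 2.42, 2.31 and 1.28 in KO and 1.13, 1.15, -0.03 and -0.10 in WT. Probe A_66_P104134 had levels of 1.52, 4.28, 1.78 and 1.48 in KO and 0.19, 0.34, -2.60 and -2.53 in WT. For both probes every KO array lay above every WT array, and WT arrays 3 and 4 lay below WT arrays 1 and 2. The differences were 1.45 (SE 0.40, adjusted p = 0.0200 by limma) and 3.42 (SE 0.96, adjusted p = 0.0222 by limma), which is 2.74-fold and 10.7-fold higher. Both calls were lost without WT arrays 3 and 4, at differences of 0.85 (adjusted p = 0.202) and 2.00 (adjusted p = 0.229), and when only the 16-month arrays were fitted (adjusted p = 0.139 and 0.153).

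At 4 months the first of these probes had levels of -0.03, 0.13 and 0.20 in KO and 0.54, 0.29, -0.39 and 0.31 in WT, and the second -3.69, -3.40 and -3.49 in KO and -3.95, -2.47, -4.30 and -2.30 in WT. The KO values lay within the WT range for both. The differences were -0.09 (SE 0.35) and -0.27 (SE 0.85), each with an adjusted p of 1 by limma. Across the 13 replicates, which share the scaling of their arrays, the 2 probes had a correlation of 0.94.

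The 2 tested probes assigned to transcript NM_011982 were uneven within the KO group at 16 months. Probe A_55_P2122789 had levels of -0.93 on KO array 1 and -0.88 on KO array 4 at 16 months, -4.07 on KO array 3, and was at the floor on KO array 2 and all WT arrays. Probe A_55_P1982122 had levels of -1.79 and -0.17 on KO arrays 1 and 4 and was not well above background on KO arrays 2 and 3 or on any WT array of that age. The high arrays were therefore the same for both probes, and their correlation over the 13 replicates was 0.95, against 0.21 to 0.37 with the NM_147176 probes. Neither difference passed: 2.23 (SE 1.13, adjusted p = 0.165 by limma) and 1.86 (SE 1.28, adjusted p = 0.310 by limma). The first passed without KO array 2 (2.98, adjusted p = 0.0467) and with signals corrected by normexp (1.93, adjusted p = 0.0319). At 4 months both probes were highest on WT arrays 2 and 4, at -3.41 and -2.78 for the first and -2.96 and -2.42 for the second, with differences of -0.56 (SE 1.00) and -1.02 (SE 1.13) and adjusted p-values of 1 by limma. The fifth probe, A_55_P1982121, was well above background on 1 of 15 arrays, KO array 4 at 16 months, with a signal below the floor, and was not tested.

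**Figure D3:**
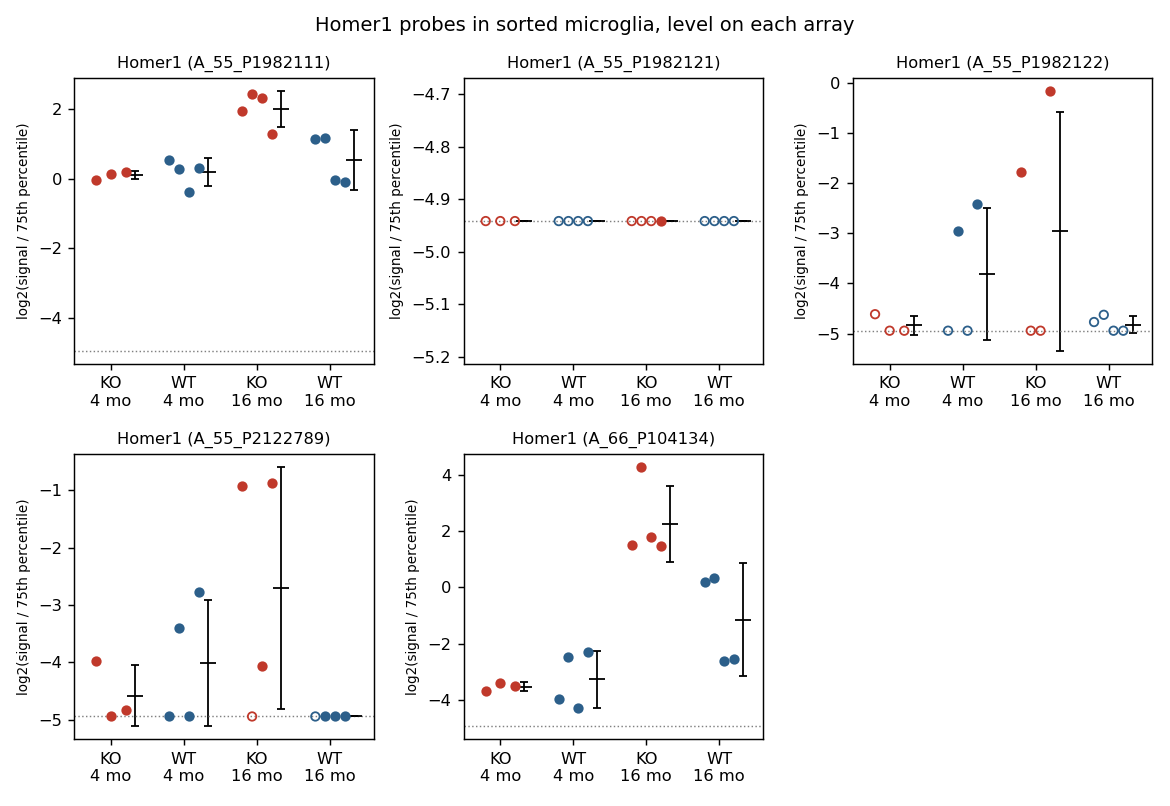
Level of the 5 Homer1 probes on each array (log2 of signal over the array's 75th percentile; axes differ between panels), KO in red and WT in blue, open circles not well above background, with mean and SD over replicates. In the panels of A_55_P1982111 and A_66_P104134 all KO arrays at 16 months lie above the WT arrays, whereas in those of A_55_P1982122 and A_55_P2122789 the height of the KO group comes from arrays 1 and 4.

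Gria2 encodes the AMPA receptor subunit that makes the channel impermeable to calcium. Probe A_65_P00930 was not well above background on any of the KO arrays of either age. In WT microglia its levels were -2.42, -2.57, -3.63 and -3.90 at 16 months and -4.01, -4.45, -4.91 and -4.07 at 4 months. It was thus at least 5.38-fold lower in KO at 16 months, where the bound sets the mean of the WT arrays against the lowest signal well above background on each KO array, or the probe's own signal if that is higher, with an adjusted p of 0.00275 by limma for the fitted difference of -1.81 (SE 0.33). At 4 months it was at least 3.28-fold lower, and the fitted difference of -0.58 (SE 0.29) did not pass (adjusted p = 0.880 by limma). With only the 16-month arrays fitted the adjusted p for 16 months was 0.0525. The probe passed the background filter through WT arrays alone, and all KO replicates were set to the floor, with an SD of 0. Its adjusted p therefore depends on the filter and the floor. The other probe, A_55_P2031327, was well above background on 3 arrays, KO arrays 1 and 3 at 4 months (levels -2.96 and -3.28) and WT array 4 at 4 months (-3.83). Its difference at that age was 0.97 (SE 0.42, adjusted p = 0.804 by limma), and at 16 months both genotypes were below background. The 2 probes are assigned to different transcripts, NM_001039195 for the first and NM_001083806 for the second.

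Camk2a encodes the alpha subunit of calcium/calmodulin-dependent kinase II, an abundant kinase of the excitatory density, and its 2 probes passed in opposite directions. Probe A_55_P2149215 had levels of -4.04, -3.98, -3.74 and -4.84 in KO and -1.52, -1.28, -1.66 and -1.52 in WT microglia at 16 months. The KO arrays were all at least 2 log2 units below the WT arrays, and the difference was -2.66 (SE 0.65, adjusted p = 0.0119 by limma), 6.30-fold lower. At 4 months the levels were -1.13, -0.88 and -1.36 in KO and -0.90, -1.43, -1.80 and -3.82 in WT. WT array 4 was as low as the 16-month KO arrays, and the difference was 0.86 (SE 0.57, adjusted p = 0.980 by limma). The 16-month call was lost without WT arrays 1 and 2 (-2.56, adjusted p = 0.0720) or 3 and 4 (-2.75, adjusted p = 0.0518).

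Probe A_55_P2149209 of Camk2a had levels of -2.13, -1.75, -2.11 and -2.21 in KO and -2.57, -3.33, -2.48 and -2.51 in WT microglia at 16 months. The genotypes did not overlap, and the difference was 0.67 (SE 0.22, adjusted p = 0.0452 by limma), 1.59-fold higher. It passed in 9 of 24 alternatives and was 0.36 (adjusted p = 0.243) when arrays were scaled on the probes above background everywhere. At 4 months the levels were -2.41, -2.58 and -2.81 in KO and -2.26, -2.28, -2.01 and -2.66 in WT, which overlapped (difference -0.30, SE 0.20, adjusted p = 0.973 by limma). The correlation of the Camk2a probes over the 13 replicates was -0.47. Of the 841 genes with 2 or more probes that passed at 16 months, 64 had probes in both directions (7.61%), and among the synaptic genes 1 of 2 did.

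**Figure D4:**
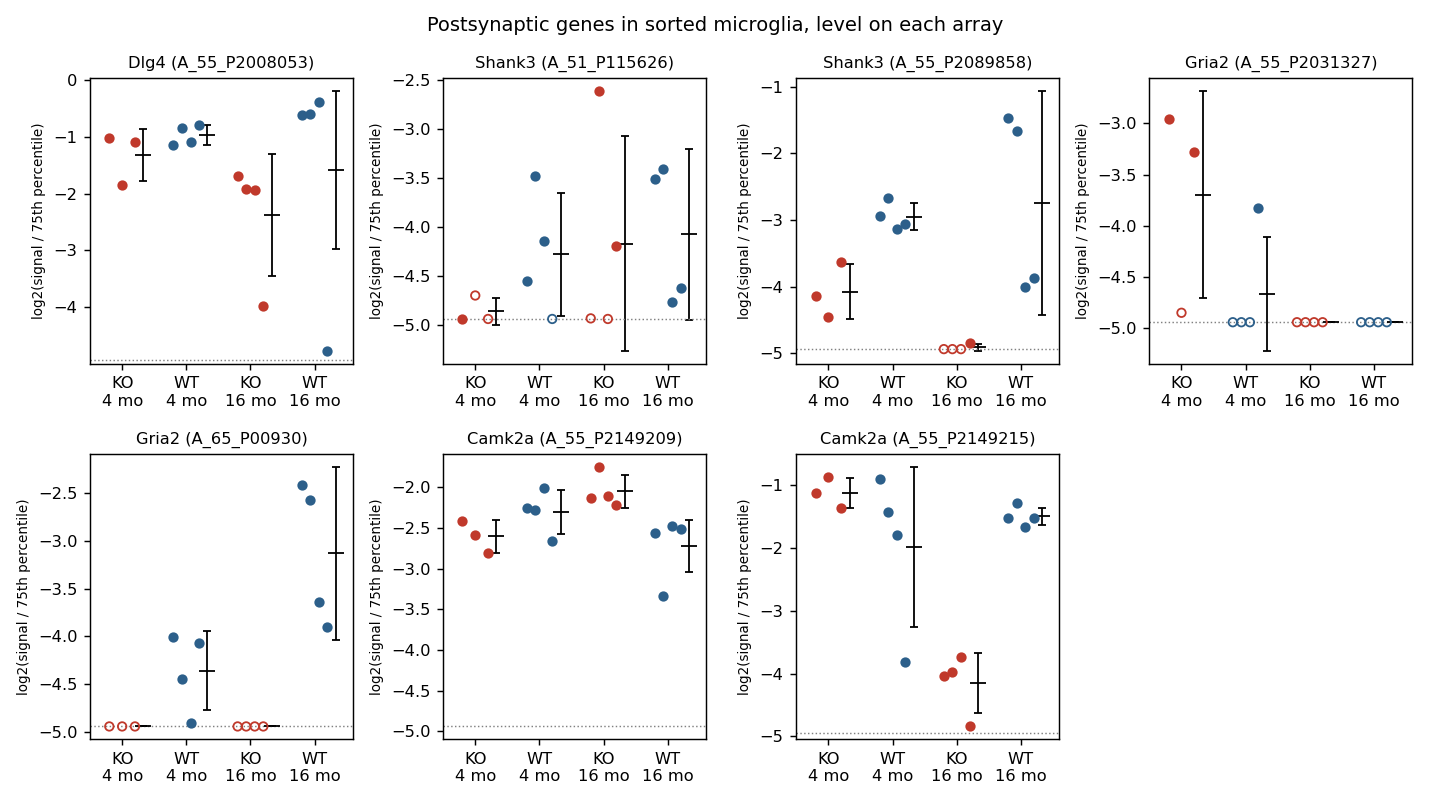
Level of the probes of Dlg4, Shank3, Gria2 and Camk2a on each array (log2 of signal over the array's 75th percentile; axes differ between panels), KO in red and WT in blue, open circles not well above background, with mean and SD over replicates. Gria2 A_65_P00930 is at the floor on all KO arrays, and the Camk2a probes differ in opposite directions at 16 months.

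The difference between KO and WT was compared between the ages in the same fit. Of the 15 synaptic probes 1 passed, Camk2a A_55_P2149215, against 11.2% of all probes. Its 16-month difference was 3.52 log2 units below its 4-month one (interaction -3.52, SE 0.87, adjusted p = 0.0287 by limma), and it passed in 16 of 22 alternatives. The other probes that passed at 16 months had interactions of -2.57 (Syn1), -1.04 (Shank3), 1.54 and 3.68 (Homer1), -1.23 (Gria2) and 0.97 (Camk2a A_55_P2149209), with adjusted p-values of 0.0572 to 0.348 by limma. For these 6 probes a difference between the ages was not shown.

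Among other genes of vesicles and release, 41 probes of 26 genes were tested, and at 16 months 6 were higher and 9 lower in KO, 36.6% in all, with a median difference of -0.23. Doc2a, a calcium sensor of release, rose on its 1 probe (3.05, SE 0.78, adjusted p = 0.0143 by limma). Slc32a1, the vesicular GABA transporter, had 1 probe that rose (2.66, SE 0.62, adjusted p = 0.00929) and another at -1.09 that did not pass (adjusted p = 0.216). Of 4 probes of Cplx2, a complexin that clamps SNARE fusion, 2 fell, the first to -2.44 ± 0.90 in KO, against 0.82 ± 0.54 in WT (SD, n = 4 and 2; adjusted p = 0.000918 by limma), and the second by 1.78 (adjusted p = 0.0247). The other 2 differed by -0.22 and -0.43 and did not pass (adjusted p = 0.545 and 0.340). Cacna1a, the pore of the P/Q-type calcium channel, fell on 1 of 2 probes, to -0.98 ± 0.62 in KO, against 0.97 ± 0.10 in WT (adjusted p = 0.00165), and the other did not pass (-1.55, adjusted p = 0.0857). Of 4 probes of Pclo, a scaffold of the active zone, 1 rose (0.88, adjusted p = 0.0261), 1 fell (-2.28, adjusted p = 0.00664) and 2 did not pass.

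Among other postsynaptic scaffold and signaling genes, 33 probes of 20 genes were tested, and 9 were higher and 4 lower in KO at 16 months, 39.4% in all, with a median difference of 0.22. All 3 probes of Dlgap1, which bridges PSD-95 and Shank, rose, and the one with the smallest p averaged 1.22 ± 0.34 in KO and -3.53 ± 0.72 in WT (SD, n = 4 and 2; difference 4.75, SE 0.71, adjusted p = 0.000968 by limma). At 16 months a probe each of Lrrtm2, a neurexin-binding adhesion protein, and Lrrc7, or densin, was well above background on KO arrays alone. All KO arrays of that age cleared the flag, and the probes were at least 22.8-fold and 5.54-fold higher (adjusted p = 0.000451 and 0.000457 by limma). Both probes passed the background filter only through these KO arrays, so the group where they were high decided that they were tested. Of 6 probes of Kalrn, an exchange factor that shapes dendritic spines, 2 fell, the first with a bound of at least 28.6-fold lower (adjusted p = 0.000243 by limma), and the other 4 did not pass, at 0.04 to 1.80. Dlgap3, a paralog of Dlgap1, fell by 1.58 on 1 probe (SE 0.24, adjusted p = 0.00101), and its other probe was at 1.18 (adjusted p = 0.154). Camk2b, the beta subunit of the kinase, fell by 3.01 on 1 probe (SE 0.58, adjusted p = 0.00386), and its other probe was at -0.26 (adjusted p = 0.216).

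Of 21 probes for other glutamate receptor genes and their auxiliary subunits, 2 were higher and 5 lower in KO at 16 months (33.3%), with a median difference of -0.49. Of 3 tested probes of Grm5, a metabotropic receptor, 1 fell by 4.45 (SE 0.53, adjusted p = 0.000312 by limma), 1 rose (2.24, SE 0.61, adjusted p = 0.0199) and 1 did not pass. Grin2b, an NMDA receptor subunit, fell by 2.17 on 1 probe (SE 0.45, adjusted p = 0.00533 by limma), and its other probe was at 0.80 (adjusted p = 0.406). Gria3, a further AMPA receptor subunit, had 1 probe that rose (1.21, SE 0.32, adjusted p = 0.0170 by limma) and 1 that fell. For GABA receptors and GABA synthesis 1 of 8 probes passed, and it was lower in KO. In none of these 4 synaptic lists did a probe pass at 4 months.

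Neuron markers outside the synapse were set beside these values. Of 23 probes for 14 genes, 1 was higher and 6 lower in KO at 16 months (30.4%), with a median difference of -0.64. The 1 of 3 Rbfox3 probes (neuronal nuclear protein NeuN) that passed averaged -4.76 ± 0.27 in KO and -0.43 ± 0.28 in WT (SD, n = 4 and 2; adjusted p = 0.000212 by limma). Elavl4, a neuronal RNA-binding protein, fell by 3.82 on 1 of 2 probes (SE 0.59, adjusted p = 0.00119). Mapt, or tau, fell on 2 of 3 probes, with differences of -2.61 (SE 0.43, adjusted p = 0.00158) and -3.10 (SE 0.73, adjusted p = 0.00974). Map2, a dendritic microtubule protein, rose by 1.80 on 1 of 2 probes (SE 0.46, adjusted p = 0.0143). The summed signal of the list, in multiples of the 75th percentile, was 14.9 to 33.3 on KO arrays and 13.9 to 34.9 on WT arrays at 16 months, and 9.87 to 12.4 on KO arrays and 11.6 to 15.9 on WT arrays at 4 months. Nefm alone of the 14 was not well above background on any KO array at 16 months. The part of neuronal material in the synaptic results was not tested.

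Markers of the sorted cells and of other cells also moved with the groups. Of 23 microglia probes 20 were lower in KO at 16 months and 0 higher, with a median difference of -3.29. Tmem119, a microglial membrane protein, averaged 3.18 ± 0.93 in KO and 6.95 ± 0.98 in WT (SD, n = 4 and 2; adjusted p = 0.000725 by limma). The summed microglia signal was 261 to 680 on KO arrays and 1274 to 2503 on WT arrays at 16 months, while at 4 months it was 1909.8 to 2985 in KO and 2000.1 to 2541 in WT, and all 15 markers were above background on at least 1 array of each group. Of 14 choroid plexus probes 7 were higher in KO at 16 months and 0 lower, among them 1 of 2 probes of Cldn2, a tight junction protein, and both of Folr1, a folate receptor (3.39, SE 0.51, adjusted p = 0.00105, and 3.85, SE 0.58, adjusted p = 0.00109, for the first Folr1 probe, by limma). The summed choroid plexus signal was 1214 to 2271 on KO arrays and 432 to 828 on WT arrays at 16 months, and 248 to 369 on KO arrays and 14.4 to 154 on WT arrays at 4 months, and each of the 10 markers was above background on at least 1 array of each group. At 4 months 0 of the choroid plexus probes passed, with a median difference of 2.81. For microglia probes 0 passed at that age, with a median difference of -0.03.

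Markers of the other cell types were also counted at 16 months. Astrocyte markers had 3 probes higher and 1 lower of 15, oligodendrocyte markers 2 and 5 of 13, endothelial markers 2 and 2 of 11, and border macrophage markers 0 and 0 of 9. Neutrophil markers had 1 higher and 0 lower of 9 and monocyte markers 2 and 0 of 8. Lymphocyte markers had 1 and 1 of 7, and red blood cell markers 1 and 0 of 1. The median difference was 0.86 for astrocyte, 0.16 for oligodendrocyte, -1.10 for endothelial and -0.02 for border macrophage probes. It was -3.36 for neutrophil, -0.45 for monocyte and 0 for lymphocyte probes, and 4.42 for the red blood cell probe. Sox9, an astrocyte and glial transcription factor, was among those that rose (3.98, SE 0.98, adjusted p = 0.0120 by limma). The 1 astrocyte probe that fell was of Slc1a3 (-3.04, SE 0.67, adjusted p = 0.00702 by limma). Mag, a myelin adhesion protein, was among the oligodendrocyte probes that fell (-3.65, SE 0.76, adjusted p = 0.00556 by limma). Neutrophil markers ranged most within a group, with a mean level of -4.49 to 1.48 on KO arrays at 16 months, against 0.27 to 1.83 on WT arrays. The part of any of these cell types in the synaptic results was not tested.

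**Figure D5:**
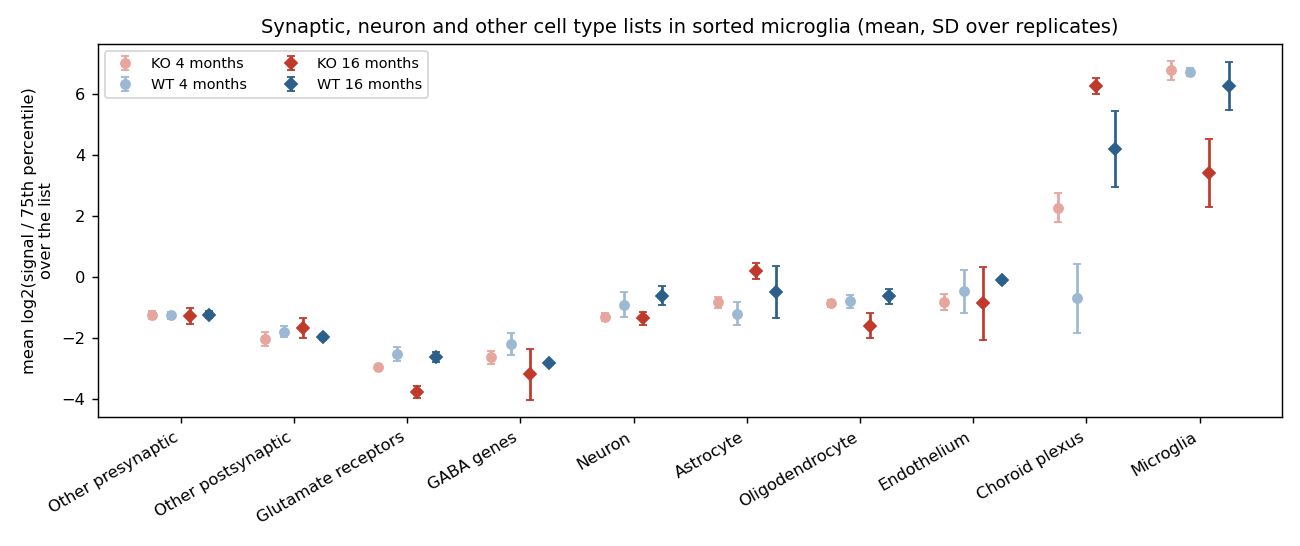
Mean level over the genes of each list (log2 of signal over the array's 75th percentile, highest-mean probe of each gene), with points for the mean and bars for the SD over replicates, in KO (red) and WT (blue) at 4 months (pale) and 16 months (dark). At 16 months the microglia list is lower in KO (2.19 to 4.64, against 5.69 to 6.92 in WT) and the choroid plexus list is higher (5.88 to 6.47, against 3.30 to 5.08 in WT).

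For the brightest probe of each synaptic gene, the genes with the most similar pattern over the 13 replicates were ranked by Pearson's r across the array, as a description over groups that share a scaling. Syn1 was most like Nrxn3 (r = 0.947), a presynaptic adhesion receptor in the list of release genes above. Snap25 was most like Slc17a5 (r = 0.980), the lysosomal sialic acid transporter, and Krt222 (r = 0.979). Homer1 was most like Armcx2 (r = 0.980) and Id1 (r = 0.979), an inhibitor of helix-loop-helix transcription factors. The highest correlations of the other genes were 0.822 with Sgms1 for Syt1, 0.978 with Hamp2 for Stx1a, 0.923 with Bcl2l13 for Dlg4, 0.995 with Hdgfl1 for Shank3, 0.957 with Rptn for Gria2 and 0.911 with Pes1 for Camk2a. The Camk2a value is for probe A_55_P2149209 alone, with a mean level of -2.36, against -2.38 for A_55_P2149215. These 2 probes had a correlation of -0.47, so the likeness does not stand for the gene. Stx1a, Shank3 and Gria2 were at or near the floor on many arrays, and likeness there is set in part by arrays at the floor.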

How the data were processed

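Single-colour Agilent arrays (design 028005) measured total RNA of sorted microglia on 15 arrays, 1 of 16 having been left out by the submitters, per the series description. The deposited intensity is the processed signal of Feature Extraction 10.7.3.1, after background subtraction by the authors, per the file headers. On the 4-month arrays alone the processed signal also differed from the background-subtracted one by a factor that varied between spots. The 5th to 95th percentile of this factor was 0.866 to 1.25 at most, as checked on the values. R 2.15.3 is also named in the submitters' processing notes. The files name no genes, and symbols came from RefSeq accessions (GRCm38.p6), with 26582 probes matched.

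Here each array was divided by its 75th percentile, repeat spots were averaged without outlier flags, signals under 0.0325 times the percentile were set to that floor, and log2 was taken. Probes well above background on at least 3 arrays (45607) entered 1 limma model (3.58.1, R 4.3.3) of 4 groups, tested two-sided with Benjamini-Hochberg adjustment over all of them at 0.05. The fit passed a check that it recovers most of a set of large known changes in simulated data. Those data had normal noise of equal spread and no floor, unlike these arrays. Log2 differences between WT arrays 1 and 2 of 16 months spread by 0.153 (scaled median absolute deviation) and those between arrays 3 and 4 by 0.117. Both are below the standard deviation of the log2 difference between 2 repeat spots of 1 array, which was 0.194 to 0.331. Other arrays of a group spread by 0.464 to 1.28. The number of arrays limits the precision. The alternatives changed the scaling, background correction, probe filter, floor, averaging of arrays, replicate block, groups fitted together and replicates. The files hold no mean spot signal, so normexp used the median spot signal and local background.

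All probes of the 9 genes are reported. Of the other lists, the genes named are among the 3 in each direction with the smallest adjusted p, and the rest are given as counts. For each synaptic gene the 2 most similar genes were computed and 1 or both are named. Some genes of the lists are not reported here. The genes and lists were chosen with earlier results of these data known.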

Additional observations from a re-analysis of the deposited data

Results flagged for a closer look

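Dlg4 on KO array 4 at 16 months had a level of -3.98, far below the next KO array at -1.93. Homer1 probe A_66_P104134 on KO array 2 at 16 months was at 4.28, far above the next at 1.78. For Shank3 probe A_55_P2089858 KO array 4 at 16 months was at -4.84 and the other KO arrays were at the floor, and for Gria2 probe A_55_P2031327 WT array 4 at 4 months was at -3.83 and the other WT arrays were at the floor. Where the other arrays share the floor, any value above it stands apart by construction, so these 2 cases say nothing about chance. For groups off the floor, chance sets apart about 1 in 20 by this measure, and groups of all probes of the 9 genes were looked at. Camk2a probe A_55_P2149215 differed between the ages in its KO minus WT difference by -3.52 log2 units (adjusted p = 0.0287 by limma).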

How the results depend on the processing

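At 16 months 13797 of all probes passed, and 3 synaptic probes were higher and 4 lower in KO. In a model of that age alone these counts became 4078, 0 and 1. When probes had to be above background on all arrays, 2 synaptic probes were lower. Shank3 A_55_P2089858 and Gria2 A_65_P00930 were not tested under that filter, and the lower probes of Syn1 and Camk2a still passed. Leaving out each replicate gave 1 to 3 higher and 2 to 4 lower. At 4 months the count over all probes (10) was 3 with quantile normalization, 5 with normexp, 0 with the stricter filter, 25 with no filter, 32 with every array as its own replicate, 26 in a model of that age alone and 2 to 126 without 1 replicate. For the interaction it was 5116 over all probes, 8532 with every array separate and 2907 to 6851 without 1 replicate. Of synaptic probes 1 passed the interaction. This count was 2 with the percentile over probes above background everywhere, 2 with normexp, 3 with the stricter filter and 3 with every array separate. It was 0 to 2 when 1 replicate was left out of a group other than WT at 16 months. With 1 probe per gene it was 0, but Camk2a A_55_P2149215, the probe that had passed, was not tested there. The other Camk2a probe had been kept. Leaving out a WT replicate of 16 months leaves 1 in that group, so for the interaction only differences are given. Without WT arrays 1 and 2 the interaction was -3.43 for Camk2a A_55_P2149215 and 0.15 for Shank3 A_55_P2089858. Without WT arrays 3 and 4 these were -3.61 and -2.23. The replicate numbers were not shown to pair samples: same-numbered arrays had correlations of -0.041 to -0.027 at 4 months (0 of 3 best with their own number) and 0.076 to 0.14 at 16 months, where 4 of 4 KO arrays correlated best with their own number but only 2 WT replicates enter, so each KO array's values with the pair of WT replicates are equal and opposite. With the replicate block 10214 probes passed at 16 months, 1 at 4 months and 2318 for the interaction, with 2 synaptic probes higher and 4 lower at 16 months.

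Directions turned for differences that did not pass. Stx1a was 0.39 at 16 months with normexp, and at 4 months 0.0078 with quantile normalization, 0.012 with normexp and 0.0048 with the replicate block. Shank3 A_51_P115626 at 16 months was 0.11 with quantile normalization and 0.23 with normexp, and Homer1 A_66_P104134 at 4 months was 0.050 with the block. Without 1 replicate the ranges were -0.82 to 0.095 for Snap25, -0.25 to 0.0098 for Stx1a, -0.28 to 0.030 for Homer1 A_55_P1982111 and -0.62 to 0.050 for Homer1 A_66_P104134 at 4 months, -0.15 to 1.74 for Syt1, -1.78 to 0.19 for Dlg4 and -0.71 to 0.53 for Shank3 A_51_P115626 at 16 months, and -2.23 to 0.15 for the Shank3 A_55_P2089858 interaction. The cause was not tested. With normexp the median difference of all probes at 16 months was 0.48, against 0.10. Signals at the floor limit what Stx1a, Shank3 and Gria2 can show.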
